A study of Mus musculus with 28 samples.

Results

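The accessory subunits of the Sin3 histone deacetylase complex were followed by RNA-seq in mouse embryonic stem cells (ESCs) that lack Tet2, carry a mutant Tet2 or are wild type for it. The members were taken by symbol: Sap30, Sap30l, Sap18, Sap130, Ing1, Ing2, Suds3, Brms1, Brms1l and Arid4b, which makes 10 of the 17342 genes in the deposited table. All 10 passed the filter on low values (a normalized count of at least 10 in at least 2 libraries). The study used V6.5 cells, a male ESC line of mixed 129/C57BL/6 background, and asks which functions of Tet2 do not need its catalysis. The groups were Tet2-KO (Tet2 knockout, 2 clones), Tet2-Mut (Tet2 mutant, 2 clones) and Tet2-WT (Tet2 wild type, 3 independent cultures). No treatment is given for these cells. The labels describe neither the mutation nor the deleted stretch. Cells of every group were grown on feeder cells in serum with LIF, pre-plated to take the feeders away, and kept overnight on gelatin before total RNA was extracted. Each clone stands for its own history as well as for its genotype, so that with 2 clones in a group clone and genotype cannot be fully told apart. The libraries held 48.3 and 47.9 M reads assigned to genes in Tet2-KO, 48.9 and 52.9 M in Tet2-Mut, and 58.5, 51.7 and 41.9 M in Tet2-WT.

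Sin3a and Sin3b are scaffold proteins without enzyme activity or sequence-specific DNA binding of their own. They hold the deacetylases Hdac1 and Hdac2 together with the histone chaperones Rbbp4 and Rbbp7, and transcription factors bring the whole to DNA. The accessory subunits stabilise this core, bind its partners or read histone marks, and in ESCs the complex takes part both in silencing and in keeping pluripotency genes active. Tet2 is a dioxygenase that oxidises 5-methylcytosine and also binds partners such as the glycosyltransferase Ogt. The study profiled Sap30 on chromatin as well, and those libraries were not analysed here.

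The members that differed between genotypes, Sap30 and Ing1, and the paralog of Ing1, Ing2, all lie on chromosome 8. Their promoters are shown because these 3 genes share a chromosome and an order of group means (Tet2-KO lowest, Tet2-Mut highest). The median of all tested genes of chromosome 8 had this order as well, and a part of the promoters in it was not tested. Each window runs from 250 bases before to 50 bases after the annotated start, in the RefSeq annotation of GRCm38.p6, and is written 5′ to 3′ on the strand of the gene. Capitals mark the GC box (GGGCGG on either strand), the element that Sp-family factors bind. The Sap30 window is chr8:57487811-57488110 on the minus strand, that of Ing1 (the first of its annotated starts) is chr8:11555512-11555811 on the plus strand, and that of Ing2 is chr8:47675110-47675409 on the minus strand.
Sap30: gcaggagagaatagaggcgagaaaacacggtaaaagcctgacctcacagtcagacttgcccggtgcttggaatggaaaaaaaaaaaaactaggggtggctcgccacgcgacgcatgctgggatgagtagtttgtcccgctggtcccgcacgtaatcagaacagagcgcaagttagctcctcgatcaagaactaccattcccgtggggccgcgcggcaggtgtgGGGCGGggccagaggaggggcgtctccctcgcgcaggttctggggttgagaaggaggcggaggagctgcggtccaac
Ing1: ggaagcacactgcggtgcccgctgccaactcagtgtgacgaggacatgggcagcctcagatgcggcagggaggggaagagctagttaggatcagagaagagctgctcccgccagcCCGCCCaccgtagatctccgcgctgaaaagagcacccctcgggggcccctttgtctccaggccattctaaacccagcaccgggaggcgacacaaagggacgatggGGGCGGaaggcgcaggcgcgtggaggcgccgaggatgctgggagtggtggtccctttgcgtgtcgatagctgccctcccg
Ing2: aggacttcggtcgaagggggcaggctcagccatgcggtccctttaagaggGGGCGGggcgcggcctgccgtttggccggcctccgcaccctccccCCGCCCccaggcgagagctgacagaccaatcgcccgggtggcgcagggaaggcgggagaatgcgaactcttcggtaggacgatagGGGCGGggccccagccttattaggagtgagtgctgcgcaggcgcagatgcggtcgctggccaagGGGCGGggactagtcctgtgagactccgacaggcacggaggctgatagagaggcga
The GC box occurred 1 time in the Sap30 window, 2 times in that of Ing1 and 4 times in that of Ing2. It was found in 60.01% of 15429 windows of the same length from 12101 genes. The windows held 22, 22 and 27 CpG dinucleotides for Sap30, Ing1 and Ing2, against a median of 19 over all windows. The CCAAT box, present in 37.59% of windows, occurred 1 time in the Ing2 window (not marked) and in neither of the other windows shown. The windows of the later annotated starts of Ing1, not shown, differed from its first. They held 0 to 2 CCAAT boxes, 1 to 6 GC boxes and 26 to 37 CpG dinucleotides.

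Tet2 itself was read first as a check of the labels. It had normalized counts (reads divided by a size factor of the library) of 4624 and 5206 in Tet2-KO, 9992 and 13181 in Tet2-Mut, and 10343, 10245 and 12074 in Tet2-WT. Both Tet2-KO clones lay below every other library, and the Tet2-Mut clones straddled the Tet2-WT range. The log2 fold change was −1.15 ± 0.12 (SE) in Tet2-KO against Tet2-WT (limma, adjusted p = 0.00522) and 0.08 ± 0.12 in Tet2-Mut against Tet2-WT (limma, adjusted p = 0.763). Tet2 reads were still counted in the knockout clones, and where in the gene they fell was not used here. The 10 ESC markers listed for the check were present in every library, with a summed normalized count of 263500 and 314900 in Tet2-KO, 309300 and 321800 in Tet2-Mut, and 311700 to 316900 in Tet2-WT. Markers of fibroblasts, the cell type of the feeders, summed to 18980 and 10410 in Tet2-KO, 8240 and 5832 in Tet2-Mut, and 5075 to 5772 in Tet2-WT, which is at most 0.038% of all reads. Of 24 fibroblast markers listed, 22 were measured. In Tet2-KO against Tet2-WT 9 of these were higher and 0 lower (limma, adjusted p under 0.05), where 3% of all genes were higher and 2.91% lower. In Tet2-Mut against Tet2-WT 0 were higher and 0 lower, where 1.44% and 1.98% of all genes were. In Tet2-KO against Tet2-Mut 4 were higher and 0 lower, where 2.64% and 3.55% of all genes were. None of the 22 markers was at 0 in any library. Their part in the results on the subunits was not tested.

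Sap30 was low in the knockout clones and high in the mutant clones. It encodes the subunit that binds Sin3 and the deacetylase at once and helps Sin3 meet other repressors; the gene lies at chr8:57482702-57487860. Its normalized counts were 3799 and 4120 in Tet2-KO, 5799 and 5804 in Tet2-Mut, and 4710, 4695 and 4729 in Tet2-WT. The 3 groups did not overlap, with every Tet2-KO clone below and every Tet2-Mut clone above all Tet2-WT cultures. Ing1 and Suds3 were also without overlap in all 3 comparisons. In any 1 comparison 40.7% to 44.8% of all genes did not overlap, and the share without overlap in all 3 was not counted. Sap30 rose by 23.1% in Tet2-Mut against Tet2-WT (log2 fold change 0.30 ± 0.07, limma, adjusted p = 0.0444) and fell by 31.8% in Tet2-KO against Tet2-Mut (log2 fold change −0.55 ± 0.07, limma, adjusted p = 0.00457). Against Tet2-WT the Tet2-KO clones had a log2 fold change of −0.25 ± 0.07, which did not pass (limma, adjusted p = 0.0567, 95% interval −0.40 to −0.10). That call depended on the libraries and the tool. It passed without Tet2-KO replicate 2 (adjusted p = 0.0467), without Tet2-Mut replicate 1 (0.0336) or replicate 2 (0.0341), and in DESeq2 (0.0230), and did not pass without Tet2-WT replicate 1 (0.176), 2 (0.183) or 3 (0.152), without Tet2-KO replicate 1 (0.288) or in edgeR (0.0642). The median log2 fold change of all 862 tested genes of chromosome 8 was −0.26 in Tet2-KO against Tet2-WT, 0.27 in Tet2-Mut against Tet2-WT and −0.52 in Tet2-KO against Tet2-Mut. In bulk RNA, fewer cells that express a gene and less RNA per cell cannot be told apart.

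**Figure D1:**
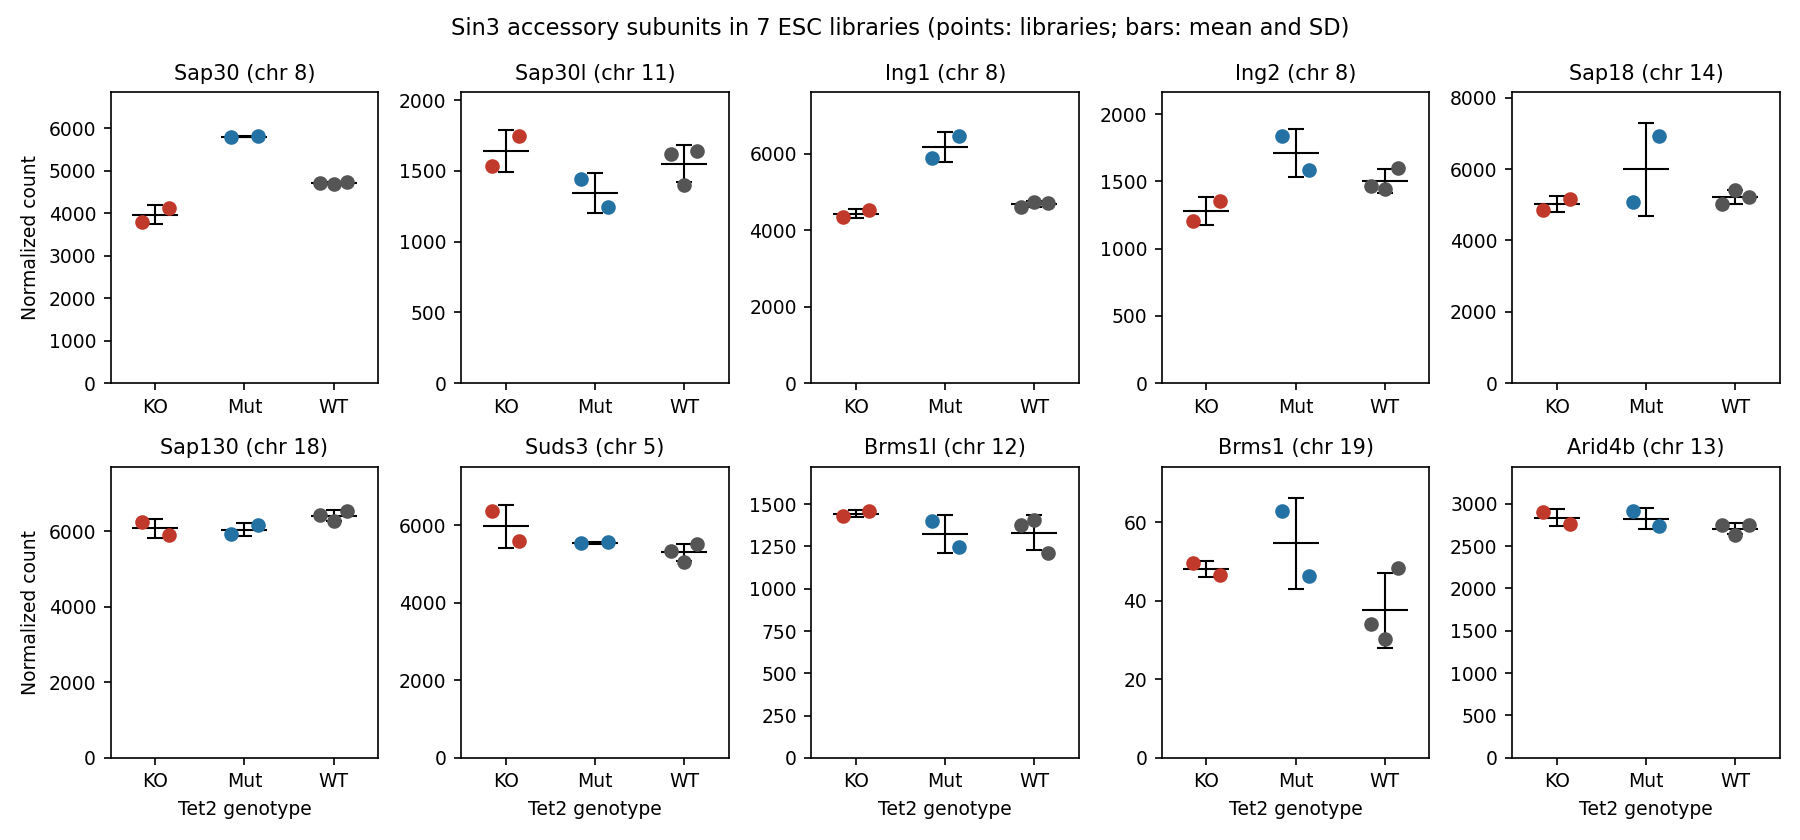
Normalized counts of the 10 accessory subunits in each of the 7 libraries (points), with the mean (long bar) and SD (whiskers) of Tet2-KO (n = 2), Tet2-Mut (n = 2) and Tet2-WT (n = 3); every vertical axis starts at 0. The 3 groups do not overlap for Sap30, Ing1 and Suds3, Ing1 is high in both Tet2-Mut clones, and Sap18 is high in 1 Tet2-Mut clone.

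Sap30l, the paralog of Sap30 that can take its place in the complex, lies on chromosome 11 and did not pass in any comparison. It had normalized counts of 1536 and 1744 in Tet2-KO, 1444 and 1243 in Tet2-Mut, and 1618, 1400 and 1638 in Tet2-WT. The Tet2-KO clones were both above the Tet2-Mut clones, and each of these groups overlapped Tet2-WT. The log2 fold change in Tet2-KO against Tet2-Mut was 0.29 ± 0.12 (limma, adjusted p = 0.233). The paralogs thus stood in opposite order between the knockout and the mutant clones. The ratio of Sap30l to Sap30 counts, which compares libraries and not molecules since transcript lengths are not divided out, was 0.404 and 0.423 in Tet2-KO, 0.214 to 0.249 in Tet2-Mut, and 0.298 to 0.346 in Tet2-WT. The groups did not overlap in this ratio, and the share of such ratios over other pairs of genes was not counted. Since Sap30 lies on chromosome 8 and Sap30l does not, the ratio includes any shift shared by chromosome 8 genes. Their median log2 fold change was −0.52 in Tet2-KO against Tet2-Mut.

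Among the ING subunits, which carry a PHD finger that binds trimethylated lysine 4 of histone H3, Ing1 was high in the mutant clones. Ing1 (chr8:11555762-11563251) had normalized counts of 4351 and 4520 in Tet2-KO, 5891 and 6454 in Tet2-Mut, and 4600, 4752 and 4707 in Tet2-WT. Both Tet2-Mut clones lay above all other libraries, and the Tet2-KO clones lay just below the Tet2-WT cultures. Ing1 rose by 31.6% in Tet2-Mut against Tet2-WT (log2 fold change 0.40 ± 0.07, limma, adjusted p = 0.0255) and fell by 28.1% in Tet2-KO against Tet2-Mut (log2 fold change −0.48 ± 0.07, limma, adjusted p = 0.00818). In Tet2-KO against Tet2-WT it had a log2 fold change of −0.08 ± 0.07 (limma, adjusted p = 0.538, 95% interval −0.23 to 0.07).

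Ing2, the paralog that shares the same place in the complex, had the same signs without passing in limma. Its gene is at chr8:47667178-47675159. The normalized counts were 1208 and 1354 in Tet2-KO, 1835 and 1584 in Tet2-Mut, and 1466, 1441 and 1604 in Tet2-WT. The Tet2-KO clones lay below all other libraries, while Tet2-Mut replicate 2 lay inside the Tet2-WT range. The log2 fold change was −0.41 ± 0.11 in Tet2-KO against Tet2-Mut (limma, adjusted p = 0.0688), −0.23 ± 0.10 in Tet2-KO against Tet2-WT (limma, adjusted p = 0.222) and 0.18 ± 0.10 in Tet2-Mut against Tet2-WT (limma, adjusted p = 0.354). Without Tet2-Mut replicate 2 the first of these passed, at −0.52 (limma, adjusted p = 0.0473), and with all libraries it passed in DESeq2 (adjusted p = 0.0213) and not in edgeR (0.0709). The ratio of Ing2 to Ing1 counts was 0.278 and 0.300 in Tet2-KO, 0.245 to 0.312 in Tet2-Mut, and 0.303 to 0.341 in Tet2-WT.

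Sap18 is a small ubiquitin-like subunit that also belongs to the splicing-linked ASAP and PSAP complexes, and it lies on chromosome 14 (chr14:57798189-57804980). It had normalized counts of 4855 and 5168 in Tet2-KO, 5066 and 6913 in Tet2-Mut, and 5023, 5414 and 5209 in Tet2-WT. A single library, Tet2-Mut replicate 2, stood above all others, and the remaining libraries overlapped. The log2 fold change in Tet2-Mut against Tet2-WT was 0.18 ± 0.12 (limma, adjusted p = 0.411). It was −0.04 without Tet2-Mut replicate 2 and 0.41 without Tet2-Mut replicate 1 (limma, adjusted p = 0.0120), so that this clone set the value. A near copy, Sap18b on chromosome 8, had 18.8 to 55.0 normalized counts, and reads could have been split between the copies. Acin1, the partner of Sap18 in ASAP and also on chromosome 14, had 21564 and 22258 in Tet2-KO, 25208 and 31566 in Tet2-Mut, and 21073, 21331 and 23483 in Tet2-WT. It was highest in that clone as well, with a log2 fold change of 0.36 ± 0.09 in Tet2-Mut against Tet2-WT (limma, adjusted p = 0.0730); Acin1 was singled out after its values were seen.

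Sap130, a subunit that binds the Sin3 scaffold, differed little between the groups. Its normalized counts were 6253 and 5900 in Tet2-KO, 5928 and 6169 in Tet2-Mut, and 6444, 6267 and 6540 in Tet2-WT. Tet2-WT lay above the other libraries by a small margin and the Tet2-KO and Tet2-Mut clones overlapped. The log2 fold changes were −0.08 ± 0.06 in Tet2-KO and −0.09 ± 0.06 in Tet2-Mut against Tet2-WT (limma, adjusted p = 0.509 and 0.485). Their 95% intervals ran from −0.22 to 0.06 and from −0.23 to 0.06.

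The Sds3 family keeps the deacetylase active within the complex, through Suds3 itself and its relatives Brms1l and Brms1. Brms1 is known in human breast cancer cells as a suppressor of metastasis. Suds3 had normalized counts of 6369 and 5584 in Tet2-KO, 5536 and 5568 in Tet2-Mut, and 5334, 5066 and 5513 in Tet2-WT. All clones lay above the Tet2-WT cultures, and Tet2-KO replicate 1 was the highest library. The log2 fold change was 0.17 ± 0.08 in Tet2-KO and 0.07 ± 0.08 in Tet2-Mut against Tet2-WT (limma, adjusted p = 0.225 and 0.670). Brms1l had 1430 and 1460 in Tet2-KO, 1404 and 1244 in Tet2-Mut, and 1376, 1405 and 1214 in Tet2-WT, with log2 fold changes of 0.12 ± 0.10 and −0.01 ± 0.10 in Tet2-KO and Tet2-Mut against Tet2-WT (limma, adjusted p = 0.532 and 0.977). The Tet2-KO clones lay just above all other libraries, and Tet2-Mut overlapped Tet2-WT. Brms1 was the least counted member, at 49.5 and 46.5 in Tet2-KO, 62.8 and 46.3 in Tet2-Mut, and 34.1, 30.1 and 48.4 in Tet2-WT. Its groups overlapped, and its 95% intervals were the widest of the members, from −0.41 to 1.16 in Tet2-KO and from −0.24 to 1.32 in Tet2-Mut against Tet2-WT.

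Arid4b, a chromatin-binding subunit with a chromodomain and an ARID domain, also differed little. It had normalized counts of 2908 and 2763 in Tet2-KO, 2914 and 2737 in Tet2-Mut, and 2744, 2628 and 2746 in Tet2-WT. The Tet2-KO clones lay just above the Tet2-WT cultures, and the Tet2-Mut clones overlapped both groups. The log2 fold changes were 0.07 ± 0.07 in Tet2-KO and 0.06 ± 0.07 in Tet2-Mut against Tet2-WT (limma, adjusted p = 0.645 and 0.683), with 95% intervals inside −0.10 to 0.23. The ratio of Arid4a, its paralog, to Arid4b overlapped between the groups, at 0.639 to 0.712 in Tet2-KO, 0.642 to 0.687 in Tet2-Mut, and 0.642 to 0.708 in Tet2-WT.

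Counted over the 10 members, 0 passed in Tet2-KO against Tet2-WT by limma with Benjamini-Hochberg adjustment over all genes, where 5.91% of the 17338 genes tested did (3% higher and 2.91% lower). An unadjusted p under 0.05 was reached by 1 member, where 23.2% of all genes reached it; edgeR called 0 members and 1110 genes, and DESeq2 called 1 member and 1992 genes. In Tet2-Mut against Tet2-WT 2 of the 10 rose (Sap30 and Ing1) and 0 fell, where 3.43% of all genes passed (1.44% higher and 1.98% lower). In Tet2-KO against Tet2-Mut the same 2 genes fell and 0 rose, where 6.19% of all genes passed (2.64% higher and 3.55% lower). The Tet2-Mut clones are shared by the last 2 comparisons and the Tet2-WT cultures by the first 2, so the counts are not independent. The median log2 fold change of the members was 0.00, 0.12 and −0.08 in these comparisons, against −0.00, 0.01 and 0.00 over all genes tested. In Tet2-KO against Tet2-WT the libraries of the groups did not overlap for 3 members that lay higher and 4 that lay lower, where 44.7% of all genes did not overlap (21.9% higher and 22.8% lower). In Tet2-Mut against Tet2-WT this held for 3 members higher and 1 lower, where 40.7% of all genes did not overlap (20.9% higher and 19.8% lower). In Tet2-KO against Tet2-Mut it held for 3 members higher and 3 lower, where 44.8% of all genes did not overlap (23.3% higher and 21.5% lower).

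**Figure D2:**
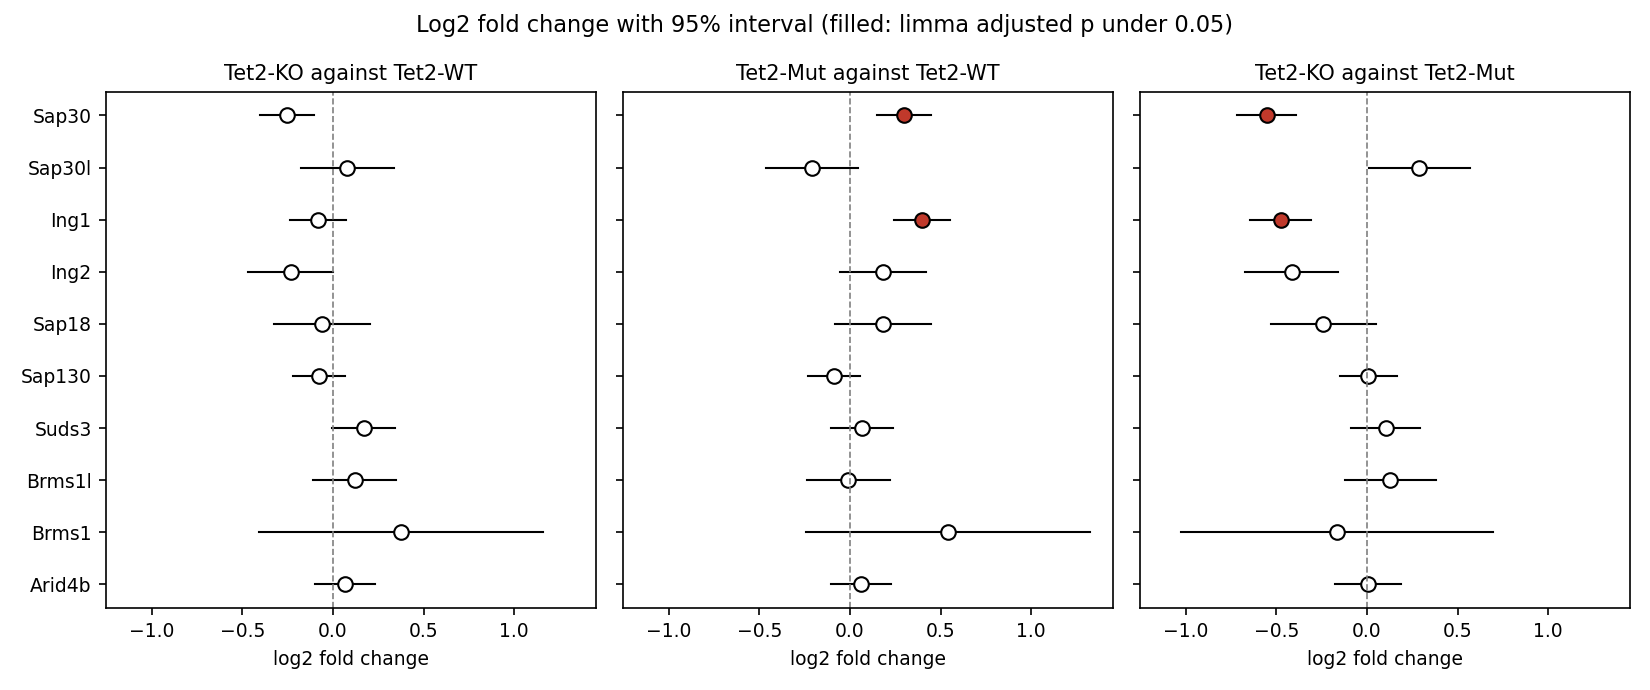
Log2 fold change of each accessory subunit in the 3 comparisons, with its 95% interval from limma; filled points had an adjusted p under 0.05. The filled points are Sap30 and Ing1, above 0 in Tet2-Mut against Tet2-WT (0.30 and 0.40) and below 0 in Tet2-KO against Tet2-Mut (−0.55 and −0.48).

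The calls in Tet2-Mut against Tet2-WT depended on which library was in the fit. Neither Sap30 nor Ing1 passed when Tet2-WT replicate 1, 2 or 3 or Tet2-Mut replicate 2 was left out, although the log2 fold change stayed at 0.30 for Sap30 and between 0.33 and 0.46 for Ing1. Both still passed without Tet2-Mut replicate 1 (limma, adjusted p = 0.0403 for Sap30 and 0.00513 for Ing1), without Tet2-KO replicate 1 (0.0322 and 0.0224) and without Tet2-KO replicate 2 (0.0328 and 0.0231). In Tet2-KO against Tet2-Mut both genes passed without any single library (adjusted p of at most 0.0421) and did not pass when only these 4 clones were fitted (limma, adjusted p = 0.0794 for Sap30 and 0.110 for Ing1, with 0 of all genes called).

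The genes of chromosome 8 were shifted as a whole in the clones. Relative to the mean of the Tet2-WT cultures, the median log2 difference of the 862 tested chromosome 8 genes was −0.28 and −0.24 in the Tet2-KO clones and 0.28 and 0.27 in the Tet2-Mut clones. In the Tet2-WT cultures it was −0.03, −0.02 and 0.06. The medians of the 19 other chromosomes lay between −0.05 and 0.09 in both Tet2-KO clones and in Tet2-Mut replicate 1. In Tet2-Mut replicate 2 they lay between −0.04 and 0.07 except for chromosome 14, the chromosome of Sap18, at 0.49. The same scaling was used for every chromosome, so the shift was seen against the rest of the genome within each library. Whether the clones differ in the copy number of chromosome 8 or 14 was not tested. For chromosome 8 genes such a difference cannot be told apart from a difference between genotypes. The chromosome 14 shift was not shared by the other Tet2-Mut clone (0.49 in replicate 2 and −0.05 in replicate 1), so it differed between clones of the same genotype.

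**Figure D3:**
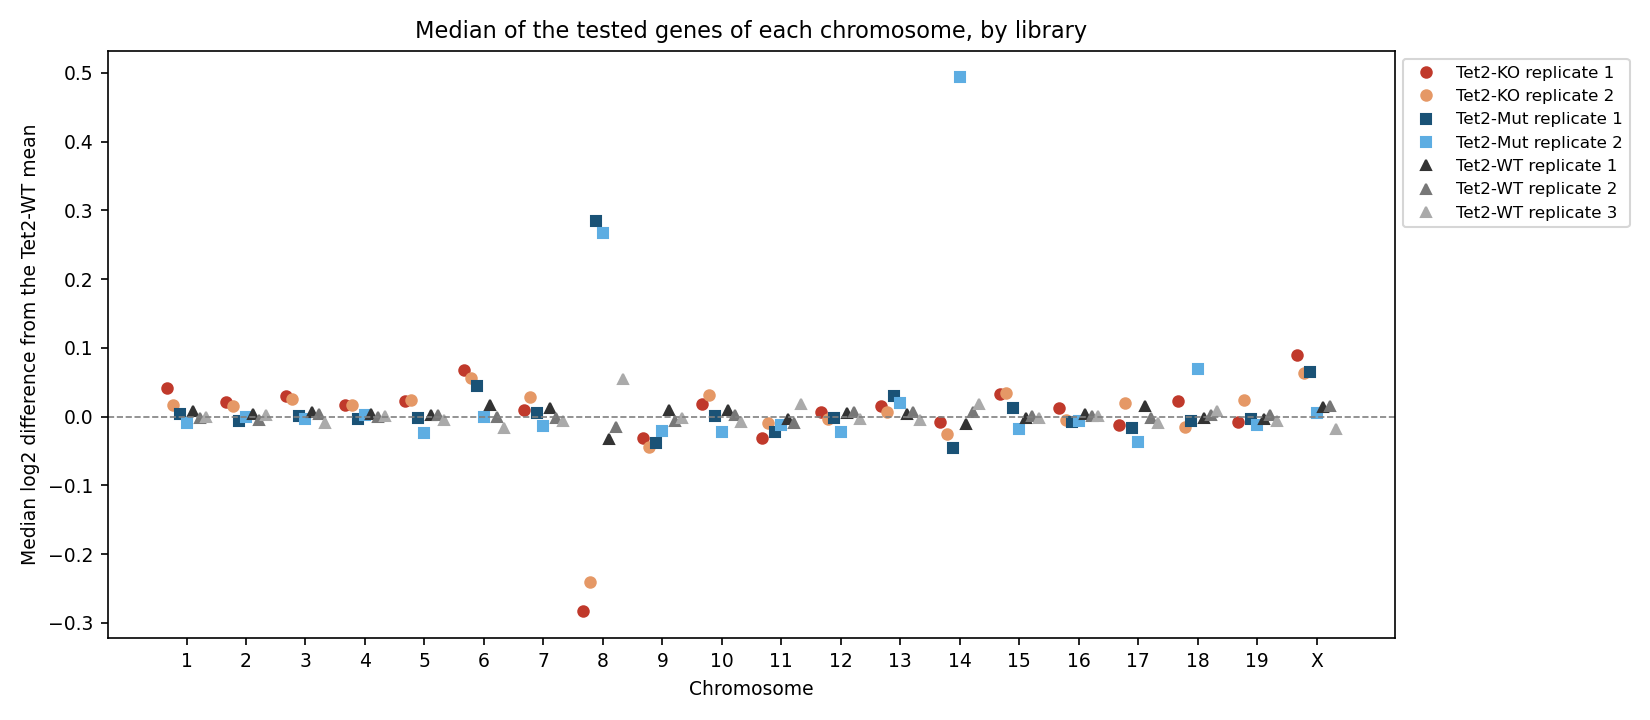
Median log2 difference from the Tet2-WT mean over the tested genes of each chromosome (horizontal axis), 1 symbol per library. On chromosome 8 both Tet2-KO clones lie at or below −0.24 and both Tet2-Mut clones at or above 0.27, and on chromosome 14 Tet2-Mut replicate 2 lies at 0.49.

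The members differed in how near they lay to that median. The difference of Sap30 from the Tet2-WT mean was −0.31 and −0.19 in Tet2-KO and 0.30 and 0.30 in Tet2-Mut, which is within 0.05 of the chromosome's median in every library. Ing1 stood at −0.11 and −0.05 in Tet2-KO, above the chromosome's median by 0.18 and 0.19, and at 0.33 and 0.46 in Tet2-Mut, above it by 0.05 and 0.19. Ing2 stood at −0.31 and −0.15 in Tet2-KO and at 0.29 and 0.08 in Tet2-Mut, where the second clone was 0.19 below the chromosome's median. Sap18 was at 0.41 in Tet2-Mut replicate 2, 0.09 below the median of chromosome 14, and at −0.04 in replicate 1.

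**Figure D4:**
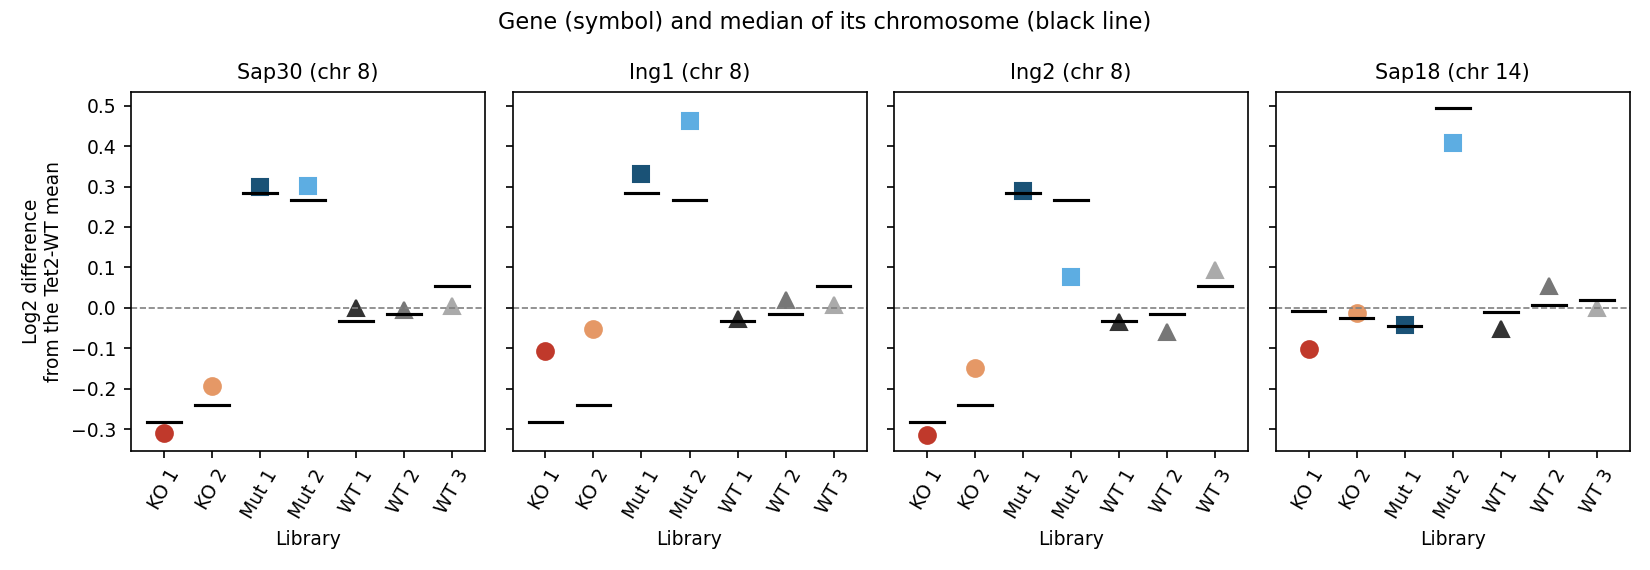
Log2 difference of Sap30, Ing1, Ing2 and Sap18 from the Tet2-WT mean in each library (symbols), with the median of all tested genes of the same chromosome (black line). Sap30 lies within 0.05 of the line in all 7 libraries, Ing1 lies above it in both Tet2-KO clones (by 0.18 and 0.19), and the high Sap18 value of Tet2-Mut replicate 2 (0.41) lies beside a chromosome median of 0.49.

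When each library was centred on the median of each chromosome, an alternative chosen after the data were seen, 0 of the 10 members passed in any comparison (limma; 1, 0 and 1 had an unadjusted p under 0.05 in Tet2-KO against Tet2-WT, Tet2-Mut against Tet2-WT and Tet2-KO against Tet2-Mut). Sap30 then had log2 fold changes of 0.01, 0.04 and −0.03 in these comparisons, each ± 0.06 or 0.07. The 95% interval for Sap30 ran from −0.11 to 0.18 in Tet2-Mut against Tet2-WT and from −0.19 to 0.13 in Tet2-KO against Tet2-Mut. Ing1 had 0.18 ± 0.07 in Tet2-KO against Tet2-WT (limma, adjusted p = 0.175), 0.13 ± 0.07 in Tet2-Mut against Tet2-WT (0.328) and 0.05 ± 0.08 in Tet2-KO against Tet2-Mut (0.799). Sap18 had −0.04 ± 0.07 in Tet2-Mut against Tet2-WT, against 0.18 ± 0.12 before centring. Over all genes this centring left 423 calls in Tet2-Mut against Tet2-WT, 109 higher and 314 lower, against 250 higher and 344 lower before it. In Tet2-KO against Tet2-Mut it left 466 calls, 299 higher and 167 lower, against 458 higher and 616 lower before it. Such a centring removes any change that all genes of a chromosome share, whatever its source.

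**Figure D5:**
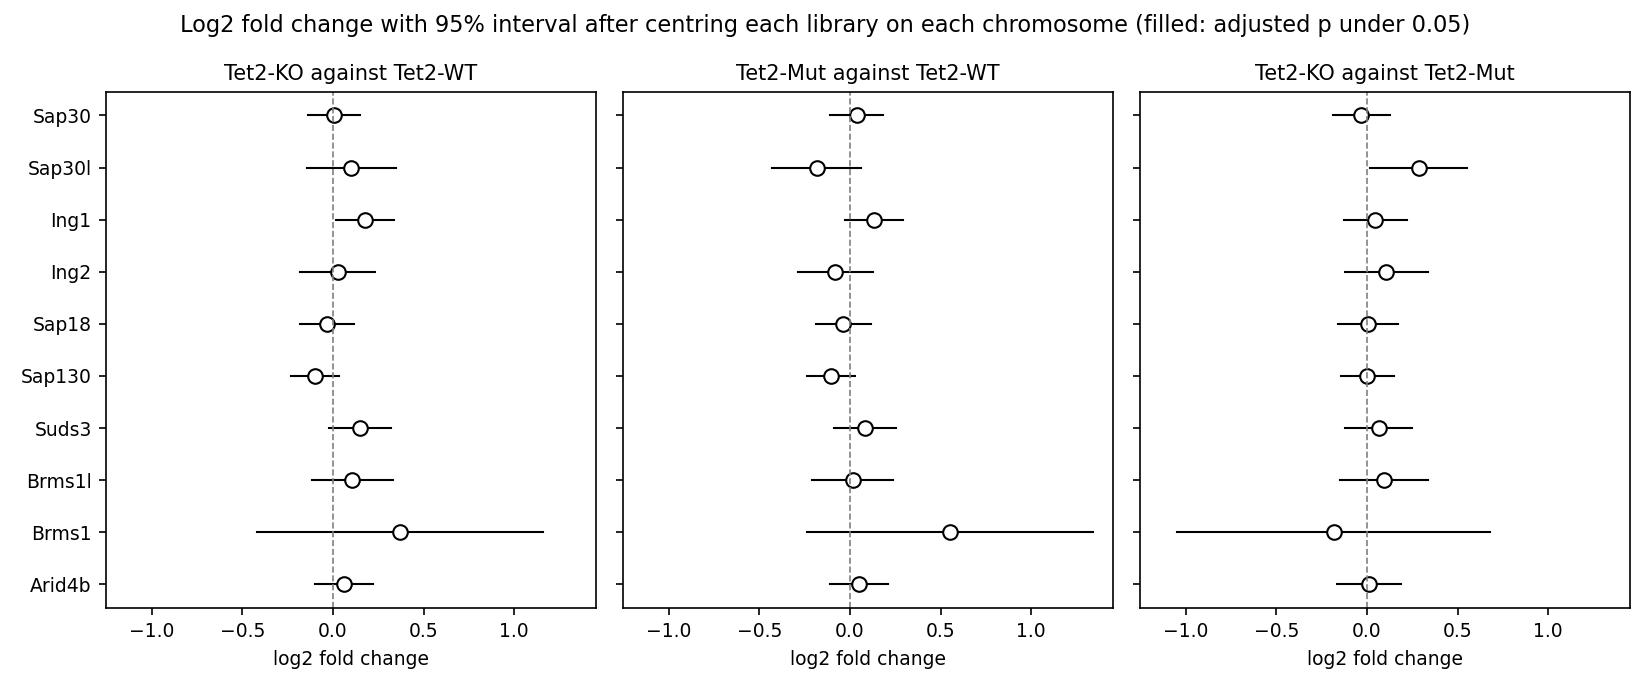
Log2 fold change of each accessory subunit with its 95% interval after each library was centred on the median of each chromosome; a filled point would mark an adjusted p under 0.05, and there is none. Sap30 moves to 0.01, 0.04 and −0.03 in the 3 comparisons, and the members outside chromosomes 8 and 14 stay close to their values before centring.

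Calls were common on chromosome 8. In Tet2-Mut against Tet2-WT 15.8% of its genes rose, against 0.735% of the genes on other chromosomes, and in Tet2-KO against Tet2-Mut 45.9% fell, against 1.37% elsewhere. In Tet2-KO against Tet2-WT, where Sap30 and Ing2 were low without passing, 16.2% of chromosome 8 genes fell, against 2.36% elsewhere. The genes next to the members did likewise. Of the 3 nearest tested protein-coding genes on either side, 4 of 6 fell beside Sap30, 5 of 6 beside Ing1 and 3 of 6 beside Ing2 in Tet2-KO against Tet2-Mut (limma), with median log2 fold changes of −0.68, −0.64 and −0.59. Fewer passed in the other comparisons. Beside Sap30, Ing1 and Ing2, 2, 1 and 2 of 6 rose in Tet2-Mut against Tet2-WT. In Tet2-KO against Tet2-WT 1, 2 and 2 of 6 fell.

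Of these neighbours 1 beside each member is given in full, singled out after the values were seen. Next to Sap30, Hmgb2, a chromatin protein that bends DNA, had normalized counts of 26937 and 31000 in Tet2-KO, 42668 and 45986 in Tet2-Mut, and 33826, 34412 and 35888 in Tet2-WT. Its groups were ordered like those of Sap30, with log2 fold changes of −0.62 ± 0.08 in Tet2-KO against Tet2-Mut and 0.35 ± 0.07 in Tet2-Mut against Tet2-WT (limma, adjusted p = 0.00457 and 0.0387). Next to Ing1, the mitochondrial cysteinyl-tRNA synthetase gene Cars2 had 1262 and 1374 in Tet2-KO, 2203 and 2180 in Tet2-Mut, and 1702, 1677 and 1874 in Tet2-WT. Cars2 fell in Tet2-KO against both other groups, with log2 fold changes of −0.73 ± 0.10 against Tet2-Mut and −0.41 ± 0.09 against Tet2-WT (limma, adjusted p = 0.00457 and 0.0322). Near Ing2, the deoxycytidylate deaminase gene Dctd had 2219 and 2183 in Tet2-KO, 3938 and 4383 in Tet2-Mut, and 3022, 3219 and 3340 in Tet2-WT. Dctd passed in all 3 comparisons, with log2 fold changes of −0.54, 0.38 and −0.92 in Tet2-KO against Tet2-WT, Tet2-Mut against Tet2-WT and Tet2-KO against Tet2-Mut. It had the lowest value of the 6 genes around Ing2 in Tet2-KO against Tet2-Mut, where the nearer Cdkn2aip and Wwc2 did not pass (−0.38 and −0.15, limma, adjusted p = 0.137 and 0.506). Among these neighbours the exceptions to the direction in Tet2-KO against Tet2-Mut were Aadat beside Sap30 and Rab20 beside Ing1, both with at most 50.8 normalized counts in any library.

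The 5 genes whose log2 counts ran most like those of Sap30 over the 7 libraries were Brf2, Get3, Cdyl2, Map2k7 and Timm44, with Pearson's r of 0.9899 to 0.9968, and all 5 lie on chromosome 8. For Ing1 they were Ier2, Mto1, Cfl2, Ankrd33b and Fam32a, with r of 0.9861 to 0.9903, of which 2 (Ier2 and Fam32a) lie on chromosome 8. These correlations describe how log2 counts differed among 7 libraries that share clones and scaling, and the genes were picked as the highest of the 17338 tested.

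A further 23 genes were measured: the core, other accessory or partner subunits, ING genes of other complexes and the partners of Sap18. They are called other complex genes for short, although the ING genes and the partners of Sap18 are not listed as Sin3 subunits. In Tet2-KO against Tet2-WT 1 of the 23 fell and 0 rose by limma, while 7 had an unadjusted p under 0.05. Over all genes 5.91% passed and 23.2% had an unadjusted p under 0.05, so both counts were near the background. That gene was Ogt, the X-linked transferase that adds N-acetylglucosamine to proteins and binds both Sin3a and Tet2. It had normalized counts of 13190 and 14824 in Tet2-KO, 14333 and 16120 in Tet2-Mut, and 18873, 18322 and 16695 in Tet2-WT. All clones of both genotypes lay below the Tet2-WT cultures. The log2 fold change was −0.36 ± 0.08 in Tet2-KO against Tet2-WT (limma, adjusted p = 0.0408) and −0.24 ± 0.08 in Tet2-Mut against Tet2-WT (limma, adjusted p = 0.152). Ogt no longer passed without Tet2-WT replicate 1, 2 or 3 (adjusted p = 0.153, 0.149 and 0.0778) or without Tet2-KO replicate 1 (0.244).

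In Tet2-Mut against Tet2-WT 0 of the 23 passed by limma, 0 by edgeR and 2 by DESeq2. Over all genes 3.43%, 3.36% and 8.97% passed by these tools. By limma 7 of the 23 had an unadjusted p under 0.05, where 21.1% of all genes had one. In Tet2-KO against Tet2-Mut 0 passed by limma, 0 by edgeR and 2 by DESeq2, where 6.19%, 6.08% and 10.4% of all genes passed. There 4 had an unadjusted p under 0.05 by limma, where 20.2% of all genes had one. The numbers of calls were near these shares. Sin3a, the scaffold on chromosome 9, had 14806 and 14666 in Tet2-KO, 13274 and 12273 in Tet2-Mut, and 14206, 13759 and 14236 in Tet2-WT. It was lowest in the Tet2-Mut clones, with a log2 fold change of −0.14 ± 0.06 in Tet2-Mut against Tet2-WT (limma, adjusted p = 0.225). Sin3b, the other scaffold and the only one of the 23 on chromosome 8, had 4961 and 5001 in Tet2-KO, 6059 and 5882 in Tet2-Mut, and 5461, 5548 and 5533 in Tet2-WT. Its groups were ordered as those of Sap30, without overlap, at −0.26 ± 0.07 in Tet2-KO against Tet2-Mut (limma, adjusted p = 0.0516); the scaffolds, and the deacetylases that follow, were singled out after their values were seen. Hdac1 and Hdac2, the deacetylases, had log2 fold changes of 0.14 ± 0.06 and −0.06 ± 0.06 in Tet2-KO against Tet2-WT (limma, adjusted p = 0.158 and 0.641). Ing3, Ing4 and Ing5, family members of acetyltransferase complexes, did not pass in any comparison.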

How the data were processed

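Total RNA was sequenced from 7 ESC libraries; the series also holds 3 bisulfite and 18 CUT&Tag samples, which are not analysed here. The authors deposited 1 table of 17342 genes in which each value is a gene's read count divided by a size factor of the library, a linear signal called normalized count here. Per the submitters' processing notes, Trim Galore 0.6.5 and STAR 2.7.3a were among the tools, with featureCounts and DESeq2, and mm10 was the build. The annotation and strand option, not given in the sources used here, are unknown, so overlapping and antisense genes cannot be separated. Read numbers were recovered from the table, since 100% of values in each library were multiples of a single step (tolerance 0.01 reads); they came to 41.9 to 58.5 M reads per library. Of the values from 1 to 20 reads, at least 72.1% were even, so mates of a pair may have been counted separately. Every gene had at least 71 reads, so the table had been filtered before deposit. Chi-square per degree of freedom was 7.19 or more for each pair of libraries, so none was a repeat of another.

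Differences were tested in 1 limma (3.58.1, R 4.3.3) model of group means over all 7 libraries, fitted to log2(normalized count + 1), a scale that understates the change of low genes, with a prior that follows the mean (5.03 prior and 4 residual degrees of freedom). The test covered 17338 genes with at least 10 in at least 2 libraries, with Benjamini-Hochberg adjustment and a threshold of 0.05. The p-values rest on 1 pooled spread of repeat Tet2-WT cultures and of clones, which were not alike. Chi-square per degree of freedom was 7.19, 13.4 and 7.71 for the Tet2-WT pairs. It was 34.2 for the Tet2-KO pair and 45.1 for the Tet2-Mut pair. The pooled spread may therefore be too small for differences between clones. The limma, edgeR and DESeq2 steps were run on simulated data with the same dispersion for every gene and no clone effect or chromosome shift. That run checks the steps and says nothing about the calls in these data. Same-numbered libraries of different groups did not deviate together (r from −0.073 to 0.087), so the numbers pair nothing. Alternatives were edgeR 4.0.16 and DESeq2 1.42.0 on recovered reads, pseudocounts of 0.5 and 10, other filters, scalings and priors, fits of 2 groups, a replicate block, each library left out, and centring on chromosome 8; centring on each gene's own chromosome was added after the data were seen.

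Chromosomes, positions and promoter windows came from the RefSeq annotation of GRCm38.p6, matched by symbol for 16103 genes (92.9%); 8 of the 10 members had a promoter that was used. The members, the gene lists and the tests were chosen with earlier results of these data known. Named genes are all members, Tet2, other complex genes past the test or paralogous to a member, genes among the 3 nearest tested on either side of each chromosome 8 member, and the 5 most correlated with Sap30 or Ing1; others are said to be singled out.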

Additional observations from a re-analysis of the deposited data

How the results depend on the processing

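The number of genes called over the whole table moved most. In Tet2-KO against Tet2-WT it was 1025, with 2159 when only these groups were fitted, 1992 by DESeq2, 19 without a mean trend in the prior and 85 to 2160 with 1 library left out. In Tet2-Mut against Tet2-WT it was 594, with 900, 1555, 0 and 6 to 2198 under the same settings (by limma without a trend, 3018 genes had an unadjusted p under 0.05). In Tet2-KO against Tet2-Mut it was 1074, with 0, 1808, 10 and 530 to 2679 (2357 genes had an unadjusted p under 0.05 in the fit of these 4 clones). Of the 10 subunits, 0 passed in Tet2-KO against Tet2-WT, and 1 (Sap30) with only these groups, with a mean of at least 50 (adjusted p = 0.0456) or by DESeq2, and 0 to 1 with 1 library left out. In Tet2-Mut against Tet2-WT 2 passed, 1 (Ing1) under upper quartile scaling, 0 without a trend, 0 after centring on each chromosome, and 0 to 3 with 1 library left out, Sap18 being the third. In Tet2-KO against Tet2-Mut 2 passed, 0 with only these groups, 0 without a trend, 0 after centring, 3 by DESeq2 (Ing2 as well), and 2 to 3 with 1 library left out. Of the 23 other complex genes 0 to 1, 0 to 4 and 0 to 2 passed with 1 library left out. Centred on chromosome 8, 348 genes passed in Tet2-Mut against Tet2-WT and 421 in Tet2-KO against Tet2-Mut. The cause of these shifts was not tested. A fit with fewer libraries has fewer degrees of freedom, yet the calls rose in some of these fits and fell in others.

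With the replicate number as a block, 15, 7 and 467 genes passed over the table in Tet2-KO against Tet2-WT, Tet2-Mut against Tet2-WT and Tet2-KO against Tet2-Mut, of which 0, 0 and 2 were subunits; since the numbers pair nothing, this says nothing about the size of the effects.

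Directions turned as follows. Centred on chromosome 8, Ing1 was at 0.15 in Tet2-KO against Tet2-WT, Ing2 at −0.11 in Tet2-Mut against Tet2-WT, and Ing1 at 0.05 and Ing2 at 0.11 in Tet2-KO against Tet2-Mut. Centred on each chromosome, Sap30, Ing1 and Ing2 were at 0.01, 0.18 and 0.03 in Tet2-KO against Tet2-WT, Sap18, Brms1l and Ing2 at −0.04, 0.01 and −0.08 in Tet2-Mut against Tet2-WT, and Sap18, Ing1 and Ing2 at 0.00, 0.05 and 0.11 in Tet2-KO against Tet2-Mut. With size factors that leave out chromosome 8, Brms1l was at 0.00 in Tet2-Mut against Tet2-WT and Sap130 and Arid4b at −0.01 in Tet2-KO against Tet2-Mut. With 1 library left out, the ranges that crossed 0 were −0.01 to 0.17 for Sap30l in Tet2-KO against Tet2-WT, −0.04 to 0.41 for Sap18, −0.09 to 0.08 for Brms1l and −0.12 to 0.28 for Tet2 in Tet2-Mut against Tet2-WT, and −0.04 to 0.05 for Sap130, −0.38 to 0.05 for Brms1 and −0.04 to 0.05 for Arid4b in Tet2-KO against Tet2-Mut. None of the values that had turned sign passed the test. Pseudocounts of 0.5 and 10 and the removal of the filter moved no subunit across the threshold. Brms1, at 30.1 to 62.8 normalized counts, is the member whose depth limits what can be seen.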
